A study of Mus musculus with 4 samples.

Results

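Macrophages of the mouse heart were compared between a library from mice given carboplatin and a library from mice given PBS, both followed by a saline pump. Macrophages were taken as barcodes with a mitochondrial share under 10%, fewer than 30000 UMIs (unique molecular identifiers, counted transcript molecules), more than 500 and fewer than 7000 genes, and 10 or more UMIs per 10000 from the complement genes C1qa, C1qb and C1qc together. This gave 5650 cells, 3251 from the PBS library and 2399 from the carboplatin library, of 13959 barcodes in both libraries and 27968 in the series.

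The study asked how a DNA-damaging drug changes the macrophages of the heart. Adult mice of mixed sex, with no genotype or strain named in the labels, were injected in the peritoneum with carboplatin (45 mg/kg) or the same volume of PBS, 2 times a week for 2 weeks. They were then left for 4 weeks, carried an osmotic pump with saline for 7 days, and were killed at day 7. The hearts of 5 mice were pooled per group, cells were sorted as CD64+ phagocytes (CD45+, CD11b+, Ly6G negative, Ly6C low), and 10000 cells were loaded for 1 library. A further pair of libraries came from mice with the same injections whose pump delivered, per kg and day, 1.5 mg of angiotensin II and 50 mg of PE, called AngII/PE here. With 1 library per group no test of the treatment was possible. The intervals below are exact 95% intervals that cover counting error only, and differences between mice of a pool cannot be seen.

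Carboplatin is a platinum compound that crosslinks DNA and harms dividing cells most. The heart holds macrophages seeded before birth that renew themselves, many of which carry the phosphatidylserine receptor Timd4, the haemoglobin scavenger receptor Cd163 and the hyaluronan receptor Lyve1, and macrophages replaced from blood monocytes, which carry the chemokine receptor Ccr2 and high MHC class II. Macrophages clear dying cells, hand peptides to T cells on MHC molecules and make complement, growth factors and chemokines. Interferon gamma, made by lymphocytes, acts on macrophages and raises guanylate-binding proteins, the MHC class II regulator Ciita and the T cell attractants Cxcl9 and Cxcl10.

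The guanylate-binding protein genes Gbp2b and Gbp2 had the highest ratios of the genes listed here for the interferon gamma response, and H2-DMb2, a chaperone gene of MHC class II loading, had the highest of the MHC class II genes. The 250 bases before their starts in RefSeq (GRCm38.p6) were searched on both strands for the core of an interferon-stimulated element (TTTC, any 2 bases, TTTC) and for TTCNNNGAA, a gamma-activated site. The first stretch is the whole window of Gbp2b (chr3:142594597-142594846, plus strand). The others are 30 bases around the match of Gbp2 (chr3:142620594-142620623, plus strand), which lies in a first exon of GENCODE that starts ahead of the RefSeq start, and of H2-DMb2 (chr17:34145021-34145050, plus strand). Capitals mark the match.
Gbp2b: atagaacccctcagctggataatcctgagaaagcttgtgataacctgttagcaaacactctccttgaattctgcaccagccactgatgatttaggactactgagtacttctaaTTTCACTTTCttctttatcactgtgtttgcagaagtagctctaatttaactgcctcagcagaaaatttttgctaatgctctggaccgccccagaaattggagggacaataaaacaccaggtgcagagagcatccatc
Gbp2: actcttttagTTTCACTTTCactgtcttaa
H2-DMb2: agggttgtatTTCCTGGAAatgcttcagcg
Gbp2b and Gbp2 held the same letters, TTTCACTTTC, whose first base lay 137 bases before the start of Gbp2b and 59 bases before that of Gbp2. H2-DMb2 held TTCCTGGAA at 218 bases before its start. Neither guanylate-binding protein window held the second motif, H2-DMb2 did not hold the first, and no match overlapped another. Of 32851 promoter windows of the same length, 2.98% held the first motif and 7.02% the second. Gbp8 and Ciita were not in the table.

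All 12 macrophage markers were at 10 CPM (counts per 1e6 of the summed macrophage UMIs) or more in both libraries, with a summed level of 25142 CPM for PBS and 24800 CPM for carboplatin. The macrophages held 38099175 and 30001652 UMIs, with medians of 11860 and 13016 UMIs and 3622 and 3758 genes per cell. The filters kept 62.4% of the PBS barcodes and 49.4% of the carboplatin barcodes, and the mitochondrial limit alone took 31.1% and 43.2%. Macrophages were 75.4% (74.1 to 76.7) and 68.9% (67.3 to 70.4) of the kept cells. Just under the C1q limit, at 5 to 10 per 10000, lay 228 and 247 kept cells, and just over it, at 10 to 20 per 10000, 312 and 293. The libraries shared 12 barcodes, of which 2 were macrophages in both. Cells with Xist and no Y-linked UMI are called female, and cells with a Y-linked UMI and no Xist male. Female cells were 48.7% of the called cells for PBS and 52.7% for carboplatin.

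Transcripts of other cell types were present at low levels inside the macrophage barcodes and several moved with the treatment. Summed B cell markers were at 387 CPM for PBS and 540 CPM for carboplatin, patrolling monocyte markers at 202 and 281, fibroblast markers at 161 and 238, and mural cell markers at 18.5 and 37.0. Endothelial markers were at 277 and 264 CPM, cardiomyocyte markers at 234 and 261, dendritic cell markers at 314 and 291, classical monocyte markers at 50.1 and 59.4, and neutrophil markers at 118 and 76.9. Erythroid and platelet markers had 418 and 732 UMIs in all. T and NK cell markers had 534 and 500 UMIs, with 9 of 14 under 0.5 CPM in each library, among them Cd3d, Cd3e and Cd3g. The part of these cells in the differences below was not tested, except that each value was also computed without the barcodes that held 5 or more per 10000 of endothelial, fibroblast, cardiomyocyte, mural, lymphocyte or neutrophil markers. That left 2107 of 3251 PBS and 1461 of 2399 carboplatin macrophages. B cell markers reached that level in 17.8% of PBS and 24.9% of carboplatin macrophages, and cardiomyocyte markers in 12.9% and 12.3%.

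With UMIs summed per library, more genes were lower than higher in the carboplatin library. Among the 8618 genes whose mean reached 10 CPM, 19 (0.22%) were higher by 2-fold or more and 74 (0.859%) lower by as much, and the counting interval of each of the 93 lay clear of no difference. At 1.5-fold, 136 genes (1.58%) were higher and 201 (2.33%) lower. With every cell weighing the same, 73 genes were at least 2-fold higher and 74 lower. The gene lists used below were chosen with earlier results of these data known. A list's share above that of all genes is thus no independent support. The log2 ratio of carboplatin to PBS had a median of -0.02 over all genes, and its 5th and 95th percentiles were -0.39 and 0.33. Of the 93 genes, 34 had over 5 times their macrophage CPM in cells of another class (9 of the 19 and 25 of the 74) and were left out by the naming rule. Ptprm, a junction phosphatase, and Prkg1, a cGMP-dependent kinase, are examples, at 103 CPM for PBS and 27.8 CPM for carboplatin, and at 101 and 32.0 CPM. Both were named after their values were seen. Of the list members given below, Ccl5, Ccng1, Cd36, Cd274, Fn1, Hbegf, Il1b, Nr4a3 and Retnla also had over 5 times their macrophage CPM in another class, and the part of those cells in their values was not tested.

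**Figure D1:**
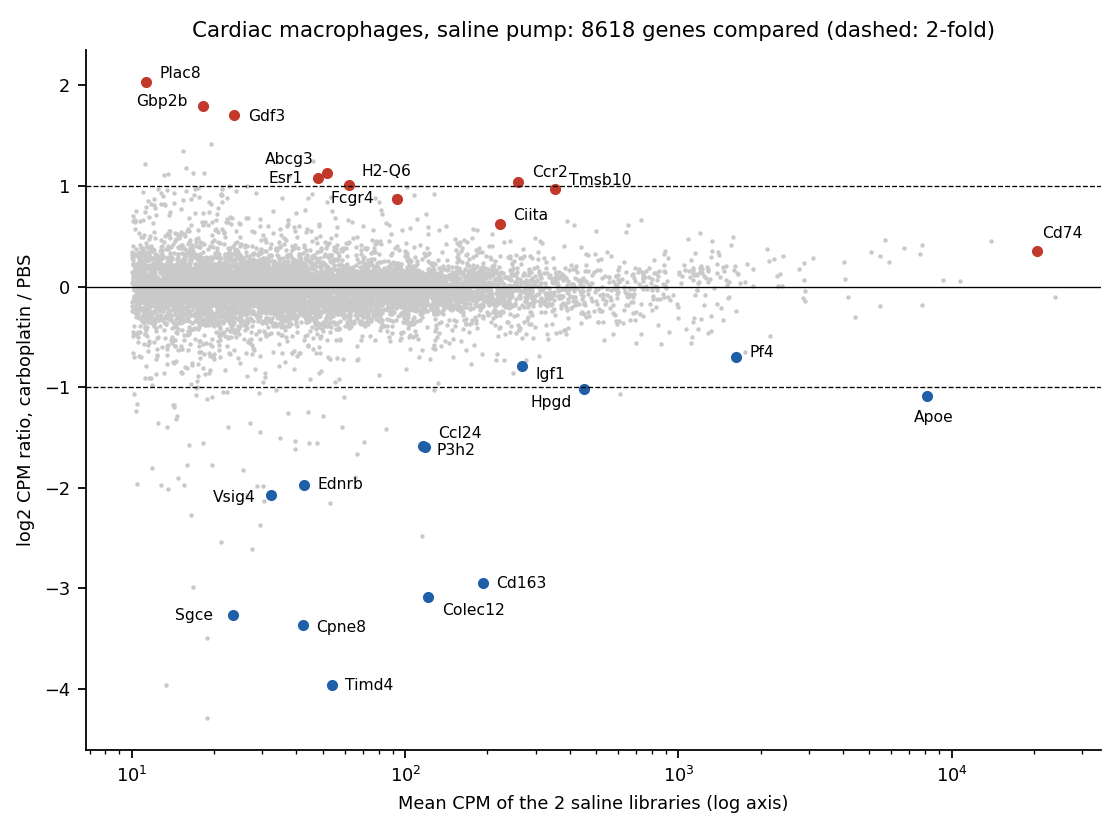
Each point is 1 of the 8618 genes compared in macrophages under a saline pump. The horizontal axis is the mean CPM of the PBS and carboplatin libraries on a log axis, and the vertical axis the log2 ratio of carboplatin to PBS. Dashed lines mark 2-fold, with 19 genes above and 74 below them. Labelled genes are described in the text, from Plac8 at 2.03 to Timd4 at -3.97.

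Among the widest differences were lower levels of receptors that clear dying cells, haemoglobin and oxidised lipids. Timd4, which binds phosphatidylserine on dying cells, was at 101 CPM in the PBS library and 6.47 CPM in the carboplatin library, 15.6-fold lower (13.5 to 18.1). Colec12, a collectin scavenger receptor, was at 218 and 25.6 CPM, 8.49-fold lower (7.88 to 9.15). Cd163 was at 342 and 44.2 CPM, 7.73-fold lower (7.30 to 8.18). These 3 genes were low in the carboplatin library in cells of either sex, with log2 ratios of -3.89, -2.54 and -2.99 among female-called and -3.96, -3.97 and -2.89 among male-called cells. With each cell thinned to 3000 UMIs, a Cd163 UMI was found in 41.8% of PBS macrophages and 8.70% of carboplatin macrophages, against 2.23% and 0.541% of endothelial-marker cells, and without thinning in 55.8% and 17.9% of macrophages. A Timd4 UMI was found in 21.0% and 1.03% after thinning and in 35.4% and 3.08% before it, against 1.99% and 0 of endothelial-marker cells (0 of 370, which allows up to 0.811%). Thinning left out 389 PBS and 354 carboplatin macrophages that held fewer UMIs, and the endothelial-marker cells had medians of 6433 and 7105.5 UMIs.

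Most other scavenger and efferocytosis genes differed far less. The median log2 ratio of the list was -0.09. Of 24 measured, 5 were at least 1.5-fold lower, against 2.33% of all genes, and none at least 1.5-fold higher. Besides the 3 genes above these were Clec10a, a galactose lectin (79.9 CPM for PBS and 53.2 for carboplatin), and Gas6, the ligand that bridges dying cells to the kinase Mertk (345 and 209 CPM). Mertk itself was at 228 and 201 CPM, and Axl, its sister kinase, at 148 and 160 CPM. Msr1, a scavenger receptor for modified lipoproteins, was at 184 and 168 CPM, and Cd36, a fatty acid and lipoprotein receptor, at 374 and 351 CPM. The list of resident macrophage markers had 12 of 19 at least 1.5-fold lower and none higher, with a median of -0.70.

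Complement genes were split, with C4b and Vsig4 lower and C1q near equal. C4b, a component of the classical pathway, was at 105 CPM in the PBS library and 36.1 CPM in the carboplatin library, 2.92-fold lower (2.73 to 3.13). Vsig4, a receptor for C3 fragments, was at 52.2 and 12.4 CPM, 4.21-fold lower (3.76 to 4.71). The C1q subunits, which the cell rule itself used, were at 4329 and 4043 CPM for C1qa, 3948 and 4174 CPM for C1qb, and 2948 and 2863 CPM for C1qc. C5ar1, the receptor of the attractant C5a, was at 631 and 438 CPM, and its decoy-like sister C5ar2 at 30.4 and 18.6 CPM. In all, 4 of 15 measured members were at least 1.5-fold lower, against 2.33% of all genes. Itgax, an integrin that binds C3 fragments and marks dendritic cells, was the 1 that was higher by as much, at 13.7 and 24.5 CPM. A C4b UMI was found in 20.2% of PBS and 7.09% of carboplatin macrophages after thinning (32.1% and 14.7% before), against 0.248% and 0.270% of endothelial-marker cells.

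**Figure D2:**
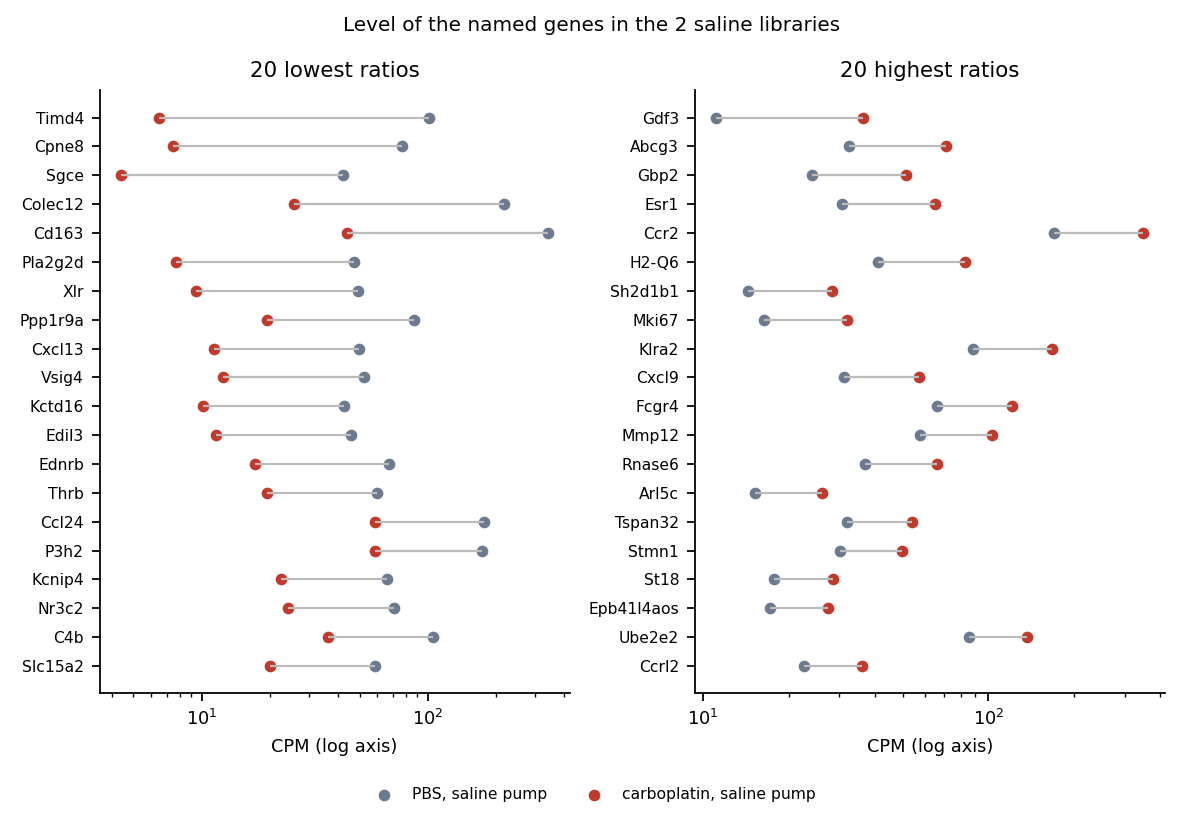
Levels of the 20 genes with the lowest (left) and the 20 with the highest (right) ratio of carboplatin to PBS, among genes that passed the naming rule. Each row is 1 gene, with its CPM on a log axis in the PBS library (grey) and in the carboplatin library (red). The gap for Timd4, from 101 to 6.47 CPM, is the widest on the left, and that for Gdf3, from 11.1 to 36.3 CPM, the widest on the right.

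Lipid mediator and lipid transport genes were among the lower genes. Apoe, the apolipoprotein that carries cholesterol out of macrophages, was at 11027 CPM in the PBS library and 5206 CPM in the carboplatin library, 2.12-fold lower (2.11 to 2.13). Hpgd, which inactivates prostaglandin E2, was at 604 and 297 CPM, 2.03-fold lower (1.98 to 2.08). Pla2g2d, a secreted phospholipase, was at 47.1 and 7.70 CPM, 6.11-fold lower (5.33 to 7.04). Apoe was lower in cells of both sexes (-0.94 and -1.23 on the log2 scale for female-called and male-called cells), as was Hpgd. Of 20 measured prostaglandin, leukotriene and NAD genes, 4 were lower by 1.5-fold or more, against 2.33% of all genes. None was higher by as much. The others of these 4 were Cd38, an NAD glycohydrolase, at 51.7 and 18.2 CPM, Ltc4s, the leukotriene C4 synthase, at 139 and 85.1 CPM, and Pla2g7, which breaks down platelet-activating factor, at 267 and 161 CPM. The list median was -0.12. Tbxas1, the thromboxane synthase, was at 405 and 447 CPM, and Alox5ap, the partner of 5-lipoxygenase, at 549 and 508 CPM.

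Several genes of cholesterol synthesis had lower levels in the carboplatin library, with different values in cells called female and male. Idi1, an isomerase of the mevalonate pathway, was at 25.8 CPM in the PBS library and 11.9 CPM in the carboplatin library (log2 ratio -1.11), with 0.01 among female-called and -1.66 among male-called cells. Fdps, the farnesyl diphosphate synthase, was at 24.4 and 15.1 CPM, with 0.33 and -1.22. The difference between the sexes was not tested, since each library is 1 pool. Abcg3, an ABC transporter gene, was the highest of the 28 measured lipid genes, at 32.4 and 71.0 CPM, 2.19-fold higher (2.04 to 2.35), and Abcg1, a cholesterol exporter, was at 29.4 and 44.6 CPM. The list had 2 members at least 1.5-fold higher, 4 lower and a median of -0.00.

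Growth factor genes past 1.5-fold were lower except for Gdf3 and a receptor of TGF-beta. Gdf3, a TGF-beta family ligand made by macrophages in muscle repair, was at 11.1 CPM in the PBS library and 36.3 CPM in the carboplatin library, 3.27-fold higher (2.92 to 3.67). Tgfbr1, the type I receptor of TGF-beta, was at 327 and 502 CPM, 1.53-fold higher (1.50 to 1.57). Igf1, insulin-like growth factor 1, was at 338 and 196 CPM, 1.73-fold lower (1.67 to 1.78). A Gdf3 UMI was found in 2.20% of PBS and 6.45% of carboplatin macrophages after thinning (3.78% and 12.3% before) and in no endothelial-marker cell (0 of 403 and 0 of 370, which allows up to 0.744% and 0.811%). The Gdf3 log2 ratio was 1.87 among female-called and 1.56 among male-called cells. It was 2.65 in cells without a Ccr2 UMI and 0.51 in cells with one. Areg and Hbegf, ligands of the EGF receptor, were at 18.3 and 5.27 CPM and at 14.5 and 6.43 CPM, and Areg had a log2 ratio of -0.29 in female-called against -3.43 in male-called cells. Of 23 measured members, 2 were at least 1.5-fold higher and 6 lower, against 1.58% and 2.33% of all genes. Tgfb1 itself was at 240 and 260 CPM and Pdgfb, a platelet-derived growth factor chain, at 103 and 113 CPM.

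Genes of alternative activation, the macrophage state driven by interleukin-4, were lower as a group. Of 16 measured, 7 were lower by 1.5-fold or more and none higher by as much, and the median log2 ratio was -0.45, against -0.02 over all genes. Besides Cd163, Igf1, Gas6 and Clec10a, given above, these were Ccl24, Cd209f and Fn1. Cd163, Cd209f, Igf1, Gas6 and Mrc1 were among those that were also members of the list of resident macrophage markers. The lower level of this list is thus not independent of that one. Ccl24, an eosinophil attractant, was at 177 CPM in the PBS library and 58.6 CPM in the carboplatin library, 3.03-fold lower (2.87 to 3.19). A Ccl24 UMI was found in 24.3% and 9.68% of thinned macrophages (41.1% and 19.4% before thinning), against 0.993% and 1.08% of endothelial-marker cells. Retnla, a secreted protein of the same state, was at 449 and 337 CPM, and Mrc1, the mannose receptor, at 1617 and 1283 CPM, while Il4ra, the interleukin-4 receptor, was at 79.1 and 70.9 CPM. The list median was -0.60 among female-called and -0.41 among male-called cells.

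Chemokines moved in both directions. Pf4, platelet factor 4, which macrophages of the heart also make, was at 2009 CPM in the PBS library and 1238 CPM in the carboplatin library, 1.62-fold lower. Cxcl13, a B cell attractant, was at 49.7 and 11.4 CPM, but 57.9% of its UMIs in PBS and 93.3% in carboplatin came from 5 cells. Cxcl9 was at 31.1 and 57.2 CPM, with 71.2% and 39.3% of UMIs in 5 cells and a log2 ratio of -0.16 among female-called and 1.34 among male-called cells. The levels of Cxcl13 and Cxcl9 thus rest on few cells. Among the CC chemokines, the monocyte attractant Ccl2 was at 339 and 307 CPM, Ccl3 at 204 and 225 CPM and Ccl4 at 439 and 490 CPM. Of 10 CC chemokines, Ccl5 was at least 1.5-fold higher (9.84 and 18.7 CPM, with 61.1% and 48.0% of UMIs in 5 cells) and Ccl24 was lower by as much. Of 9 CXC chemokines, 1 was at least 1.5-fold higher and 3 were lower by as much, with a median of -0.46. Cytokines and their receptors had no member past 1.5-fold in either direction among 27. Il1b, the inflammasome product, was at 337 and 316 CPM, and Tnf at 150 and 167 CPM.

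Receptors that mark cells from blood monocytes were higher in the carboplatin library. Ccr2, the receptor of Ccl2, was at 169 CPM for PBS and 349 CPM for carboplatin, 2.06-fold higher. A Ccr2 UMI was found in 516 of 2862 PBS and 767 of 2045 carboplatin macrophages after thinning (in 22.9% and 47.3% of all before it), against 1.99% and 4.05% of endothelial-marker cells. Cells chosen for holding a Ccr2 UMI had 613 and 629 CPM, a level that this choice itself bears on. Klra2, a receptor of the Ly49 family, was at 88.6 and 167 CPM, 1.89-fold higher (1.81 to 1.97). Cx3cr1, the fractalkine receptor, was at 178 and 236 CPM. Of 17 measured genes of monocyte-derived macrophages, 6 were at least 1.5-fold higher, against 1.58% of all genes. In the same list 1 was lower by as much, and the median was 0.14. The 6 were Plac8, Ccr2, Klra2, Itgax, Ms4a4c and Cd52, of which Plac8, Itgax and Ms4a4c were at 56.8, 5.36 and 6.26 times their macrophage level in classical monocyte-marker cells, and the lower one was Fn1, fibronectin. Lyz2, the lysozyme gene, was at 9076 and 9472 CPM. With the barcodes that held monocyte or dendritic cell markers left out, Ccr2 had a log2 ratio of 1.40 and the list a median of 0.37, while Plac8 went from 2.03 to 0.55, under 1.5-fold. Leaving out those barcodes was chosen after the data were seen. The list median was -0.16 in cells with a Ccr2 UMI.

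Genes of the interferon gamma response were higher in the carboplatin library. Gbp2b was at 8.14 CPM for PBS and 28.2 CPM for carboplatin, 3.47-fold higher (3.04 to 3.96), and Gbp2 was at 24.0 and 51.4 CPM, 2.14-fold higher (1.97 to 2.32). These are near copies on chromosome 3, so reads could be shared between them. Gbp3 was at 38.3 and 58.8 CPM and Cd274, the checkpoint ligand PD-L1, which B cells also carry, at 14.7 and 27.8 CPM. Of 24 measured members, 10 were at least 1.5-fold higher and none lower, against 1.58% higher of all genes, and the median was 0.40. The list was chosen with earlier results of these data known, so this count is no independent support. The receptor chains Ifngr1 (322 and 329 CPM) and Ifngr2 (152 and 146 CPM) and the transcription factor Irf1 (261 and 258 CPM) were near equal. Of 33 measured genes of the type I interferon response, 1 was at least 1.5-fold higher, Irf7, a transcription factor of the response, at 29.3 and 45.0 CPM. The median of that list was 0.01, with Isg15, a ubiquitin-like protein, at 48.2 and 45.1 CPM and Ifit3, an RNA-binding antiviral protein, at 36.9 and 28.5 CPM. Without barcodes that held other cells' markers, the interferon gamma median was 0.53. Gbp2 UMIs were also found in 29.5% of thinned endothelial-marker cells of both libraries, above the 4.51% and 9.29% of macrophages (13.3% and 25.5% before thinning).

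**Figure D3:**
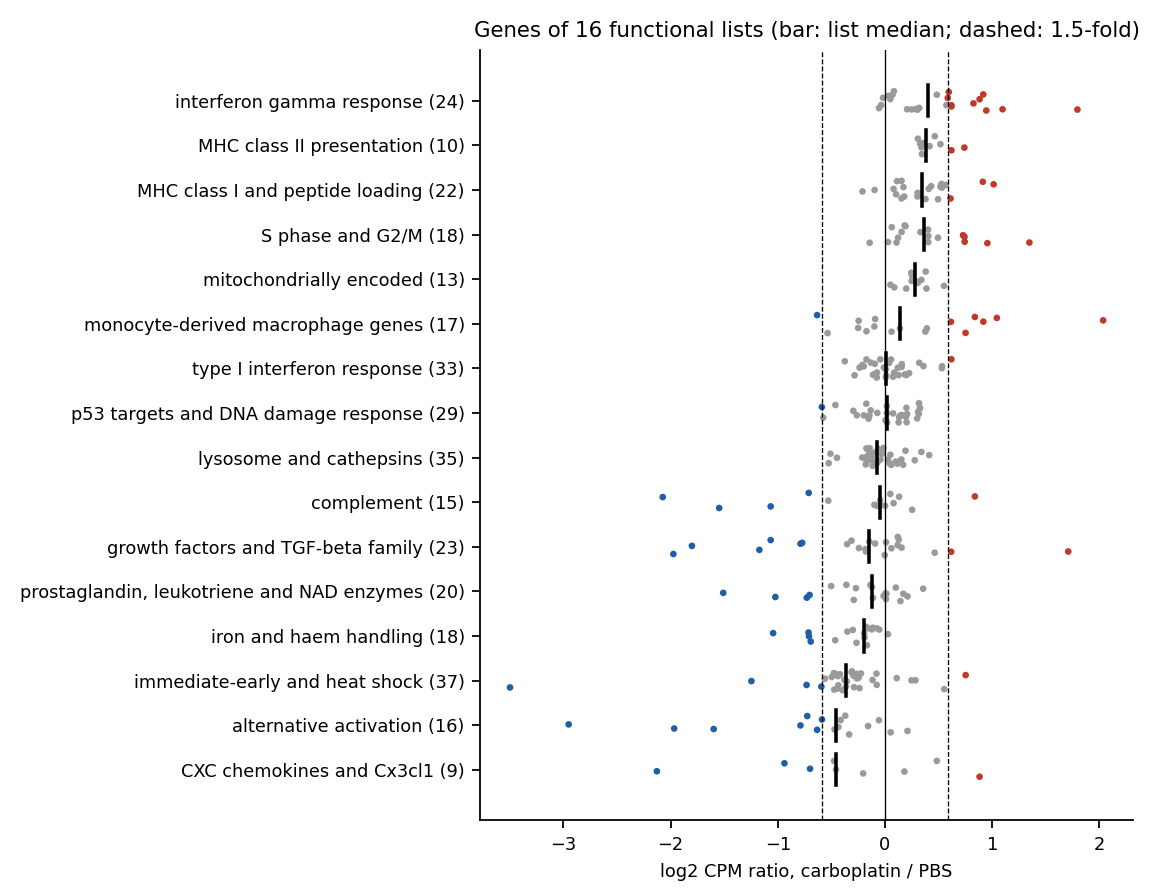
Each point is 1 gene of a functional list, with its log2 ratio of carboplatin to PBS on the horizontal axis and a random vertical offset within the row. Each list carries its number of measured genes in brackets. Thick bars mark the list median, and dashed lines 1.5-fold. The interferon gamma list has 10 of 24 genes to the right of the right line, and the alternative activation list 7 of 16 to the left of the left line.

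Most antigen presentation genes had a higher level in the carboplatin library, by less than 1.5-fold for most members. Cd74, the invariant chain of MHC class II, was at 18047 CPM in the PBS library and 23092 CPM in the carboplatin library, 1.28-fold higher. H2-Ab1, a class II beta chain, was at 4769 and 6581 CPM, 1.38-fold higher (1.37 to 1.39). Ciita was at 175 and 269 CPM, 1.54-fold higher (1.49 to 1.59). All 10 measured class II genes had a higher level in the carboplatin library, 2 of them by at least 1.5-fold (Ciita and H2-DMb2), with a median of 0.39. Over all 8618 genes compared, 3812 had a higher level, and 1.58% were higher by at least 1.5-fold. H2-DMb2, at 10.3 and 17.2 CPM, was at 21.9 times its macrophage level in B cell-marker cells, and their part in it was not tested. Of 22 measured class I genes, 20 had a higher level, 3 by at least 1.5-fold, with a median of 0.34. The class I heavy chain gene H2-K1 was at 982 and 1417 CPM, 1.44-fold higher (1.42 to 1.46), and B2m, the shared light chain, at 1315 and 1853 CPM. H2-Q6, a class Ib gene with close copies on chromosome 17, was at 41.1 and 83.0 CPM, 2.02-fold higher (1.89 to 2.15). Tap1, a peptide transporter, was at 69.2 and 106 CPM. The chaperones Calr and Pdia3 were the 2 with a lower level, at 389 and 363 CPM and at 399 and 345 CPM. A Ciita UMI was found in 35.3% of PBS and 51.3% of carboplatin macrophages after thinning (58.5% and 73.2% before), against 1.74% and 3.24% of endothelial-marker cells. B cells carry class II too, and their markers were higher as given above; without barcodes that held such markers the class II median was 0.41.

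The class II genes had a higher median on both sides of a split by Ccr2. It was 0.38 in cells without a Ccr2 UMI and 0.19 in cells with one, and Ciita had 0.64 and 0.25. The interferon gamma median was 0.44 on both sides. Gdf3, Ube2e2 and Ccrl2 were among 11 of the 40 genes of the naming rule that were under 1.5-fold in cells with a Ccr2 UMI. The resident marker list had a median of -0.54 without and -0.28 with a Ccr2 UMI. A cell that expresses Ccr2 can lack a UMI, so this split is not a clean one.

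Ratios in female-called and male-called macrophages differed in size. For 29 of the 40 genes of the naming rule the levels of the sexes were further apart, as a ratio, in the PBS library than in the carboplatin library. That count was not made over all genes, and the 40 were picked by their ratio in all macrophages. The difference between the sexes was not tested. Gbp2 was at 32.0 CPM in female-called and 15.1 CPM in male-called PBS cells, but at 52.4 and 52.8 CPM in carboplatin cells. Ciita was at 201 and 138 CPM for PBS and at 266 and 277 CPM for carboplatin. Hspa1a, a heat shock protein induced by stress and tissue digestion, was at 782 and 1966 CPM for PBS and at 1074 and 907 CPM for carboplatin. Vsig4 went the other way, at 60.9 and 48.0 CPM for PBS and 22.5 and 5.43 CPM for carboplatin, as did Colec12, at 183 and 272 CPM and at 31.5 and 17.3 CPM. The median log2 ratio of the interferon gamma list was 0.13 among female-called and 0.82 among male-called cells, and that of the class II list 0.18 and 0.66. For the immediate-early and heat shock list it was -0.04 and -0.57. Over all genes, 119 were at least 1.5-fold higher and 200 lower in female-called cells, against 505 and 585 in male-called cells. At 1.5-fold, 9 of the 40 genes of the naming rule missed the limit among female-called cells (Sh2d1b1, Mki67, Cxcl9, Rnase6, Arl5c, Tspan32, Stmn1, St18 and Epb41l4aos) and 2 among male-called cells (Mmp12 and Kcnip4). The mice behind each sex are a few of the 5 pooled, and the labels do not say how many.

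**Figure D4:**
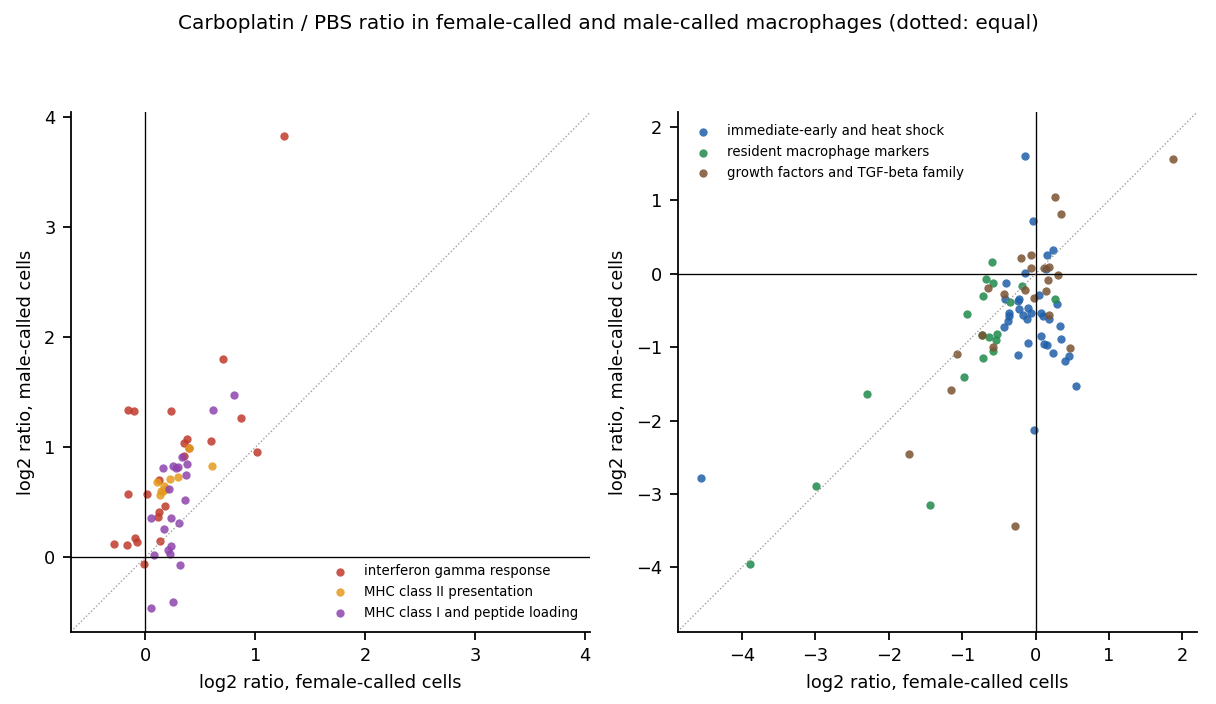
Log2 ratio of carboplatin to PBS in female-called cells (horizontal) and male-called cells (vertical), 1 point per gene, for 3 lists on the left and 3 on the right. Points on the dotted line have the same ratio in both. The interferon gamma list has a median of 0.13 among female-called and 0.82 among male-called cells, and the immediate-early and heat shock list -0.04 and -0.57.

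Immediate-early and heat shock genes, which respond within minutes to stress and to cell isolation, were lower in the summed library. Of 37 measured, 4 were at least 1.5-fold lower and 1 was higher by as much, and the median was -0.36. Fos was at 1515 CPM in the PBS library and 1117 CPM in the carboplatin library, and Jun at 1446 and 1184 CPM. In male-called cells 17 of the 37 were at least 1.5-fold lower and in female-called cells 1, against 6.79% and 2.32% of all genes. Mitochondrially encoded transcripts were at 32263 CPM in sum for PBS and 39734 CPM for carboplatin, with all 13 genes higher and a median of 0.28. Below a mitochondrial share of 5% that median was 0.09, so it moved with the limit on the cells. The 53 nuclear genes of oxidative phosphorylation had no member past 1.5-fold and a median of 0.02, and 21 genes of glycolysis and hypoxia none and a median of -0.09.

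Genes of the response to DNA damage were near the median of all genes, weeks after the last injection. Of 29 measured p53 targets and damage genes, none was at least 1.5-fold higher and 1 was lower by as much, with a median of 0.02. Cdkn1a, the cell cycle inhibitor p21, was at 252 CPM in the PBS library and 220 CPM in the carboplatin library, and Mdm2, the p53 ubiquitin ligase, at 83.4 and 69.5 CPM. Ccng1, cyclin G1, another p53 target, was at 34.8 and 35.2 CPM. The lower one was Aen, an apoptosis nuclease, at 21.2 and 14.1 CPM, with log2 ratios of 0.17 among female-called and -1.15 among male-called cells. Of 18 measured Fanconi and homologous recombination genes, 11 had a higher level, none by 1.5-fold or more, with a median of 0.04. Among all 8618 genes, 3812 had a higher level. Rad51b, a gene of recombination repair, was lower at 171 and 83.8 CPM, 2.04-fold (1.95 to 2.14). Its log2 ratios were -1.48 among female-called and -0.34 among male-called cells, the latter under 1.5-fold. Another 21 genes of this list, Brca1, Brca2 and Fancd2 among them, were under the 10 CPM limit. Of 21 measured senescence and secretory genes, 1 was at least 1.5-fold higher and 2 lower. Cdkn2a, the locus of p16, was at 16.9 and 12.6 CPM.

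Cycling genes were higher in the carboplatin library. Mki67, a marker of cycling cells, was at 16.4 CPM for PBS and 31.8 CPM for carboplatin, 1.94-fold higher (1.75 to 2.15), and Top2a, the replication topoisomerase, had 330 and 661 UMIs, 2.54-fold higher per total (2.23 to 2.91). Of 18 measured S and G2/M genes, 5 were at least 1.5-fold higher and none lower, against 1.58% and 2.33% of all genes. Their median was 0.37. In female-called cells none was at least 1.5-fold higher and in male-called cells 11 were, against 1.38% and 5.86% of all genes. Cells with 3 or more UMIs over 8 cycling genes were 2.28% of PBS and 4.38% of carboplatin macrophages, 74 and 105 cells. The list median was 0.14 among female-called and 0.74 among male-called cells, where Mki67 was at 24.6 and 31.9 CPM and at 7.57 and 31.3 CPM for PBS and carboplatin. With the cycling cells left out it was 0.17.

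The receptor genes Esr1, Thrb and Nr3c2 were each taken by the naming rule. Esr1, oestrogen receptor alpha, was at 30.8 CPM in the PBS library and 64.9 CPM in the carboplatin library, 2.11-fold higher (1.96 to 2.27). In female-called cells Esr1 was at 42.7 and 64.9 CPM and in male-called cells at 15.9 and 63.4 CPM. Thrb, a thyroid hormone receptor, was at 59.5 and 19.4 CPM, 3.06-fold lower (2.79 to 3.36). Nr3c2, the mineralocorticoid receptor, was at 71.1 and 24.2 CPM, 2.93-fold lower (2.70 to 3.19), while Nr3c1, the glucocorticoid receptor, was at 341 and 305 CPM. Fkbp5, a glucocorticoid-induced chaperone, was at 62.2 and 34.2 CPM. Most transcription factors that define macrophages were near equal: of 37 measured, 2 were at least 1.5-fold higher (Esr1 and Nr4a3) and 1 lower, Spic, the factor of macrophages that recycle iron, at 22.1 and 13.5 CPM. Spi1, the lineage factor PU.1, was at 448 and 450 CPM and Zeb2 at 2305 and 2313 CPM.

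Iron genes had lower levels as a group. Over all 8618 genes compared, 3812 had a higher level in the carboplatin library, 2.33% were at least 1.5-fold lower and the median was -0.02. Of 18 iron genes measured, 17 had a lower level in the carboplatin library, 4 by at least 1.5-fold, with a median of -0.19. Besides Spic these were Slc40a1, the iron exporter ferroportin, at 29.1 CPM for PBS and 14.1 CPM for carboplatin, Tfrc, the transferrin receptor, at 49.6 and 30.7 CPM, and Cp, the ferroxidase ceruloplasmin, at 69.6 and 42.6 CPM. Slc40a1 was at over 5 times its macrophage level in neutrophil-marker cells, and Cp at 6.04 times in fibroblast-marker cells. Hmox1, which breaks down haem, was at 231 and 181 CPM. The lysosome and cathepsin list had none of 35 past 1.5-fold and a median of -0.07, with Ctsb, a cathepsin, at 1533 and 1323 CPM and Psap, the saposin precursor, at 1333 and 1774 CPM.

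Among Fc receptors and SIRP family genes, 2 of 21 measured (Fcgr4 and Sirpb1a) were higher by 1.5-fold or more and none lower, with a median of 0.05. Fcgr4, an activating receptor for IgG2, was at 65.8 CPM in the PBS library and 121 CPM in the carboplatin library, 1.83-fold higher (1.74 to 1.93), whereas Fcgr1, which encodes the sorted antigen CD64, was at 165 and 146 CPM. The inhibitory receptor Fcgr2b was at 339 and 335 CPM and Fcgr3 at 507 and 499 CPM. A Fcgr4 UMI was found in 14.4% and 24.4% of thinned macrophages (33.3% and 48.3% before), against 0.744% and 1.89% of endothelial-marker cells. Fcgr4 is also high in patrolling monocytes, whose markers were higher as given above, and without barcodes that held monocyte or dendritic cell markers its log2 ratio was 0.81, against 0.87 in all. Sh2d1b1, an adaptor of SLAM receptors, was at 14.4 and 28.2 CPM, 1.96-fold higher (1.76 to 2.19).

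Matrix and cell shape genes held several of the remaining wide differences. P3h2, a collagen prolyl hydroxylase, was at 175 CPM in the PBS library and 58.3 CPM in the carboplatin library, 2.99-fold lower (2.84 to 3.16). Mmp12, macrophage elastase, was at 57.5 and 103 CPM, 1.79-fold higher (1.69 to 1.89), with 21.5% and 22.1% of its UMIs in 5 cells. Its log2 ratio was 1.50 among female-called cells, but under 1.5-fold among male-called cells (0.45) and in cells without a Ccr2 UMI (0.24). F13a1, the transglutaminase factor XIII, was at 2142 and 1364 CPM. Of 19 measured matrix and protease genes, 2 were at least 1.5-fold higher and 6 lower, against 1.58% and 2.33% of all genes. Edil3, an integrin ligand that helps the uptake of dying cells, was at 45.7 and 11.6 CPM, 3.94-fold lower (3.51 to 4.43). Ednrb, the endothelin B receptor, was at 67.7 and 17.3 CPM, 3.92-fold lower (3.57 to 4.32). Tmsb10, an actin-binding peptide, was at 240 and 468 CPM, 1.95-fold higher (1.90 to 2.01), and at 7.89 times its macrophage level in T and NK cell-marker cells. The other genes taken by the naming rule were lower by 2.91-fold to 10.3-fold (Cpne8, Sgce, Xlr, Ppp1r9a, Kctd16, Kcnip4 and Slc15a2) or higher by 1.59-fold to 1.79-fold (Rnase6, Arl5c, Tspan32, Stmn1, St18, Epb41l4aos, Ube2e2 and Ccrl2).

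The same contrast was read in the AngII/PE libraries, which share no sample with the saline ones, over 3157 PBS and 5128 carboplatin macrophages. Of the 74 genes lower under saline, 64 were below 0 there, against 51.2% of all genes, and 26 were lower by 2-fold or more, against 0.557% of all genes, and for 8 the counting interval lay on the other side. Timd4 was at 3.38 CPM for PBS and 0.339 CPM for carboplatin, Cd163 at 62.5 and 30.3 CPM, and P3h2 at 16.4 and 3.78 CPM. Of the 19 higher genes, 13 were above 0, against 48.8% of all genes, and 2 were higher by 2-fold or more, Gbp2b and Top2a, against 0.116% of all genes. Gdf3 was at 50.4 and 77.2 CPM there. Ccr2, at 250 and 254 CPM, Apoe, at 21196 and 20504 CPM, and Esr1, at 30.5 and 31.9 CPM, were near equal under AngII/PE. C4b was at 32.7 and 40.3 CPM and Ccl24 at 14.7 and 19.3 CPM, each slightly higher in the carboplatin library. The medians of the class II list were 0.39 under saline and -0.24 under AngII/PE, those of the class I list 0.34 and 0.36, and those of the interferon gamma list 0.40 and 0.24. Lists with lower medians under saline were near 0 or above it under AngII/PE. The resident marker list had -0.70 and 0.07, the alternative activation list -0.45 and -0.06, and the iron list -0.19 and 0.15. The CXC chemokine list had -0.46 and -0.08, and the immediate-early and heat shock list -0.36 and 0.01. The difference between the pump conditions was not tested.

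**Figure D5:**
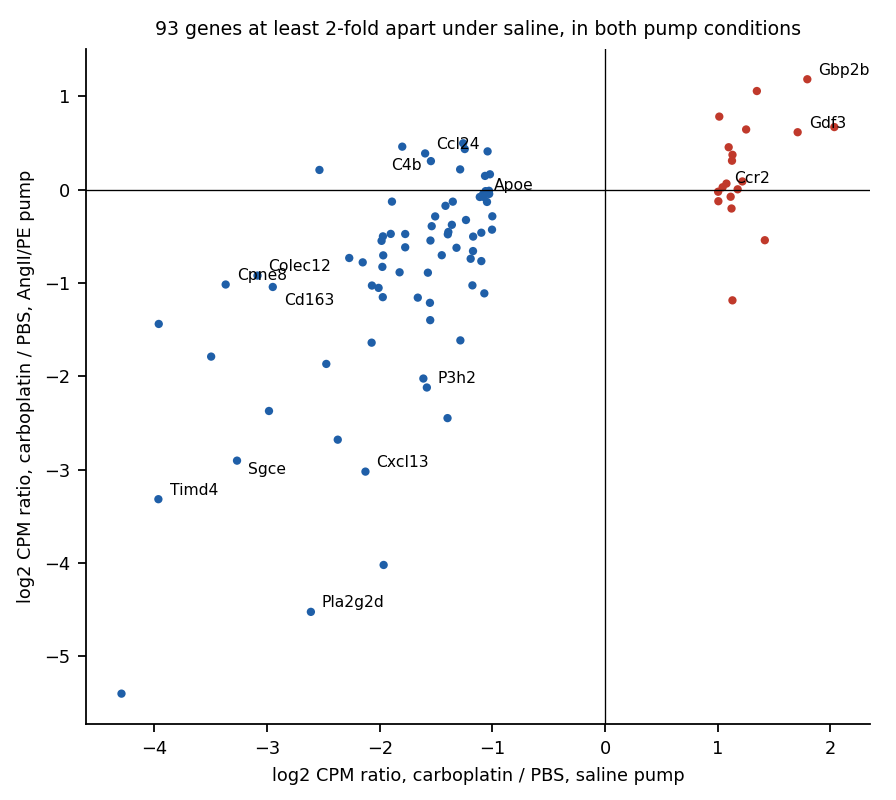
Log2 ratio of carboplatin to PBS under saline (horizontal) and under AngII/PE (vertical) for the 93 genes at least 2-fold apart under saline. Red points are higher and blue points lower under saline. Of the 74 blue points 64 lie below 0 on the vertical axis, and of the 19 red points 13 lie above it.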

How the data were processed

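Hearts were measured by droplet single-cell RNA sequencing in 4 libraries, 1 per group. The authors deposited whole-number UMI counts per gene and barcode, with no normalization, written by Cell Ranger 7.1.0 per the file headers. The labels' protocols name Cell Ranger 3, Seurat 3.2.3 and 3' kits of version 1 and 3.1, and the submitters' processing notes name Seurat 4 and the mm10 genome. The use of intron reads in counting was not stated in the labels or headers.

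The deposited counts were summed over the macrophage barcodes of each library and divided by their total, as CPM (counts per 1e6). The macrophage UMIs came to 38099175 and 30001652 in the PBS and carboplatin saline libraries. Ratios carry exact conditional binomial 95% intervals, and shares of cells exact Clopper-Pearson ones. PCR duplicates were collapsed by UMI, and intervals and the limit from a count of 0 (3 counts) cover counting error only. No doublet caller was run and no doublets were removed. The 20 highest and 20 lowest ratios were named among 5783 genes with a mean of 20 CPM or more. Left out were Xist, Tsix, Y chromosome genes, mitochondrial, ribosomal and unnamed genes, and markers of other cells. Genes at over 5 times the macrophage level in another class were also left out. Other X-linked genes were kept, Xlr and Vsig4 among them. To the 20 highest and 20 lowest were added the 4 widest members of each of 32 function lists and members that describe a list. The members and lists were chosen with earlier results of these data known. Positions of genes came from GENCODE M21, which held 32158 of 32285 gene IDs. For shares, cells were thinned to 3000 UMIs. The ratio and interval code was tested on simulated counts. Python 3.11.15, numpy 2.4.6, scipy 1.17.1, pandas 2.3.3 and matplotlib 3.10.9 were used. Some genes of the lists counted are not reported here by name.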

Additional observations from a re-analysis of the deposited data

Results flagged for a closer look

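Of the 40 genes of the naming rule, 8 had ratios of carboplatin to PBS with opposite directions under the 2 pumps (Cxcl9, Mmp12, Arl5c, St18, Epb41l4aos, Ube2e2, Ccl24 and C4b), each read from 1 library per group. For 3 of them the ratio was past 1.5-fold under both. Mmp12, macrophage elastase, had a log2 ratio of 0.84 under saline and -0.80 under AngII/PE. St18, a zinc finger factor gene, had 0.69 and -0.60. Ube2e2, a ubiquitin-conjugating enzyme gene, had 0.67 and -0.70. The difference between the pump conditions was not tested.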

How the results depend on the processing

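No paired analysis was possible because each group has 1 library, and for the same reason no replicate could be left out. The count of genes at least 2-fold higher, 19 as reported, was 132 in male-called cells, 39 in cells without and 12 in cells with a Ccr2 UMI, 73 with every cell weighing the same, 31 after thinning, 9 at a mean of 20 CPM, 199 at a mean of 1 CPM and 2368 with no minimum. It was 29 without barcodes holding monocyte or dendritic cell markers, a setting chosen after the data were seen. The count of genes at least 2-fold lower, 74 as reported, was 157 in male-called cells, 44 at 20 CPM, 251 at 1 CPM and 1966 with no minimum. With every cell weighing the same it was also 74, beside 73 higher. With no minimum on CPM more genes were higher than lower. The other settings gave 18 to 28 higher and 54 to 86 lower genes. The cause of these shifts was not tested, except that the CPM minimum sets how many genes are compared. Several lower genes outside the naming rule turned above 0 on the log2 scale in female-called cells. Among them were Idi1 at 0.0128, Fdps at 0.33, Aen at 0.17 and Hspa1a at 0.46. Of the 40 named genes, 39 kept their sign in every one of the 16 settings that gave them a value, the exception being Cxcl9 at -0.16 in female-called cells. Ccr2 had no value in cells without a Ccr2 UMI. Of 32 list medians, 17 kept their sign. Genes near 10 CPM rest on the fewest UMIs, and low shares of cells on the depth per cell.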
